A study of Arabidopsis thaliana with 12 samples.

Results

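A set of 84 probe sets gave lower signals in leaves of ape2, a mutant of the triose phosphate/phosphate translocator, than in leaves of Ws-2, by a similar amount in both growth conditions of the study. They were chosen from the 22746 probe sets that are not controls by the values described here, as group means of log2(signal + 10). A probe set was taken when its mean signal over the 12 arrays was 50 or more, ape2 minus Ws-2 was -0.5 or lower in condition L and in condition H, and H minus L, averaged over the genotypes, lay within 0.2 of 0. Of the 9738 probe sets with a mean signal of 50 or more, 86 met these limits. Of these UGT78D1 and 1 probe set with no gene named were left out, as 5 named items are excluded from the set, and the 84 that stayed were 0.863% of the 9738. Because the genotype and condition differences chose the members, they are given as a description and carry no test. The platform annotation and RefSeq give 1 gene for 40 members, 9 of them with a gene symbol and 31 by locus code. They give several genes for 1 member and none for 43, which are called by their probe set IDs.

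The arrays were hybridised with RNA from mature, unshaded rosette leaves of Arabidopsis thaliana at developmental stage 3.7. Ws-2, a natural accession, served as the wild type and carries no mutation named in the labels. The mutant was represented by a single line, ape2, with a T-DNA insertion in Ws-2. There were 3 arrays each of Ws-2 in L, ape2 in L, Ws-2 in H and ape2 in H. The titles do not spell out L and H, which are names only here. Nothing in the labels says whether replicates were separate plants or pots. A whole leaf was measured, so fewer cells of a type and less RNA per cell cannot be told apart.

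The translocator sits in the inner envelope of the chloroplast. By day it exports triose phosphates made by the Calvin cycle to the cytosol, where they feed sucrose synthesis, and it brings phosphate back in return. Plants that lack it are known to send more of their carbon into starch and to export it as sugars made when starch is broken down.

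Median signals of the arrays lay between 36.2 and 40.1, and 63.8% to 67.7% of probe sets reached a signal of 20. The 7 measured genes of photosynthesis, among them RCA, LHCB4.1 and PRK, had mean signals from 2757 to 4486, against 19.9 and 28.3 for the root genes EXPA7 and EXPA18. The summed signal of those 7 was 25168 to 31122 across the Ws-2 L arrays, 24049 to 26244 in ape2 L, 24789 to 29302 in Ws-2 H and 23898 to 27554 in ape2 H. The trichome gene TRY read 176 to 226 in Ws-2 L, from 157 up to 192 in ape2 L, 181 to 218 in Ws-2 H and 162 to 179 in ape2 H. The stomatal gene FMA had a mean signal of 51.0, that of SPCH was 4.22 and that of MUTE 2.49, and the dividing-cell gene AUR1 had 52.8. None of the 12 marker genes tested with limma was called between the genotypes, with adjusted p-values of 0.213 or higher. No probe set is named for the translocator gene (0 found), so its transcript did not check the genotype labels. The 3'/5' signal ratio of actin, which reflects how intact the RNA was, averaged 2.98 ± 0.23 in Ws-2 L, 2.73 ± 0.21 in ape2 L, 2.63 ± 0.36 in Ws-2 H and 2.41 ± 0.12 in ape2 H (SD, n = 3). It was thus lower on average in ape2 in each condition, with overlapping ranges, and its part in the differences below was not tested.

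The signal of the members in ape2 was most often near 60% of that in Ws-2. In L the median over the 84 members was 60.7% of the Ws-2 signal, with a range from 35.3% to 69.96%, and in H it was 59.0%, from 34.2% to 69.8%. On the log2(signal + 10) scale, which understates the change of a dim transcript, the difference had a median of -0.68 in L (from -1.29 to -0.50) and of -0.71 in H (from -1.40 to -0.51). The median over all 9738 probe sets was -0.01 in each condition. Falls of 1 or more on this scale were seen for 5 members in L and 13 in H, and for 3 in both. For 40 members the difference lay between -0.5 and -0.75 in both conditions.

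**Figure D1:**
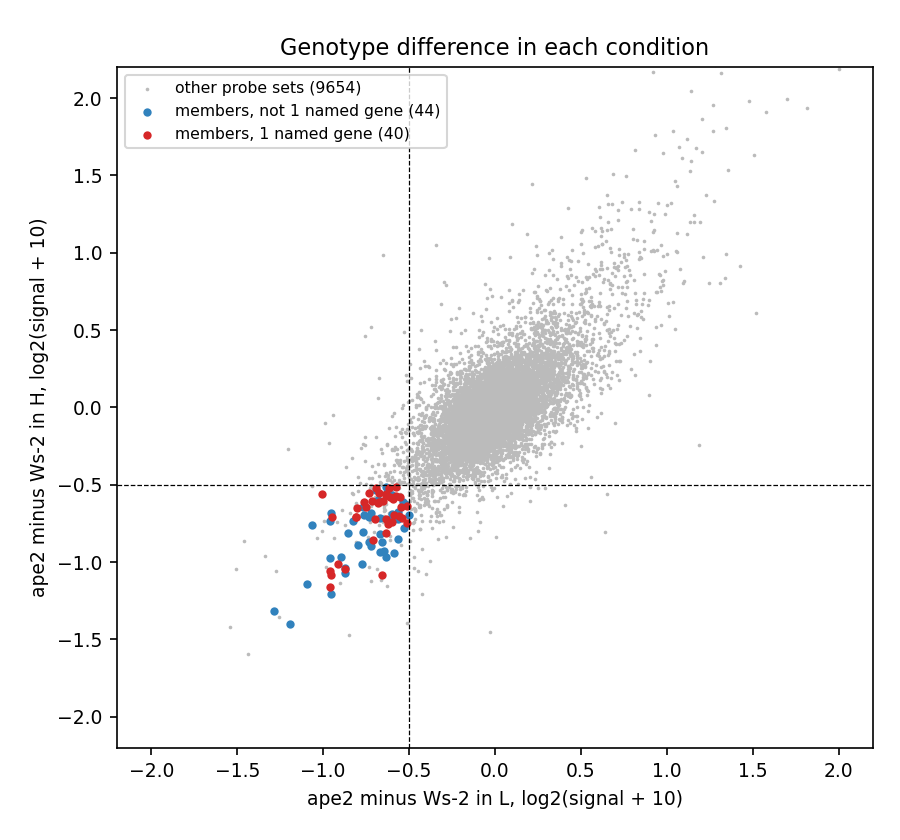
Difference between the genotypes in condition L (horizontal axis) and in condition H (vertical axis) for each probe set with a mean signal of 50 or more, as ape2 minus Ws-2 of log2(signal + 10). Red points are the 40 members with 1 named gene, blue points the other 44 members, and grey points the other 9654 probe sets, of which 9 lie outside the axes. Dashed lines mark the limit of -0.5, and the members fill the corner below both lines except where grey points were left out by their condition difference or by name.

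In L every ape2 array lay below every Ws-2 array for 83 members, where 17.2% of all probe sets with a mean signal of 50 or more did so. In H this held for 83 members as well, against 19.6% of all. Across both conditions the 6 ape2 arrays lay below the 6 Ws-2 arrays for 82 members, against 5.73% of all. These counts follow from how the members were chosen. The spread among replicate arrays, pooled over the groups, had a median SD of 0.14 over the members (from 0.05 to 0.40), next to 0.13 over all. For 3 members the smaller genotype difference was under 2 of their pooled SDs.

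**Figure D2:**
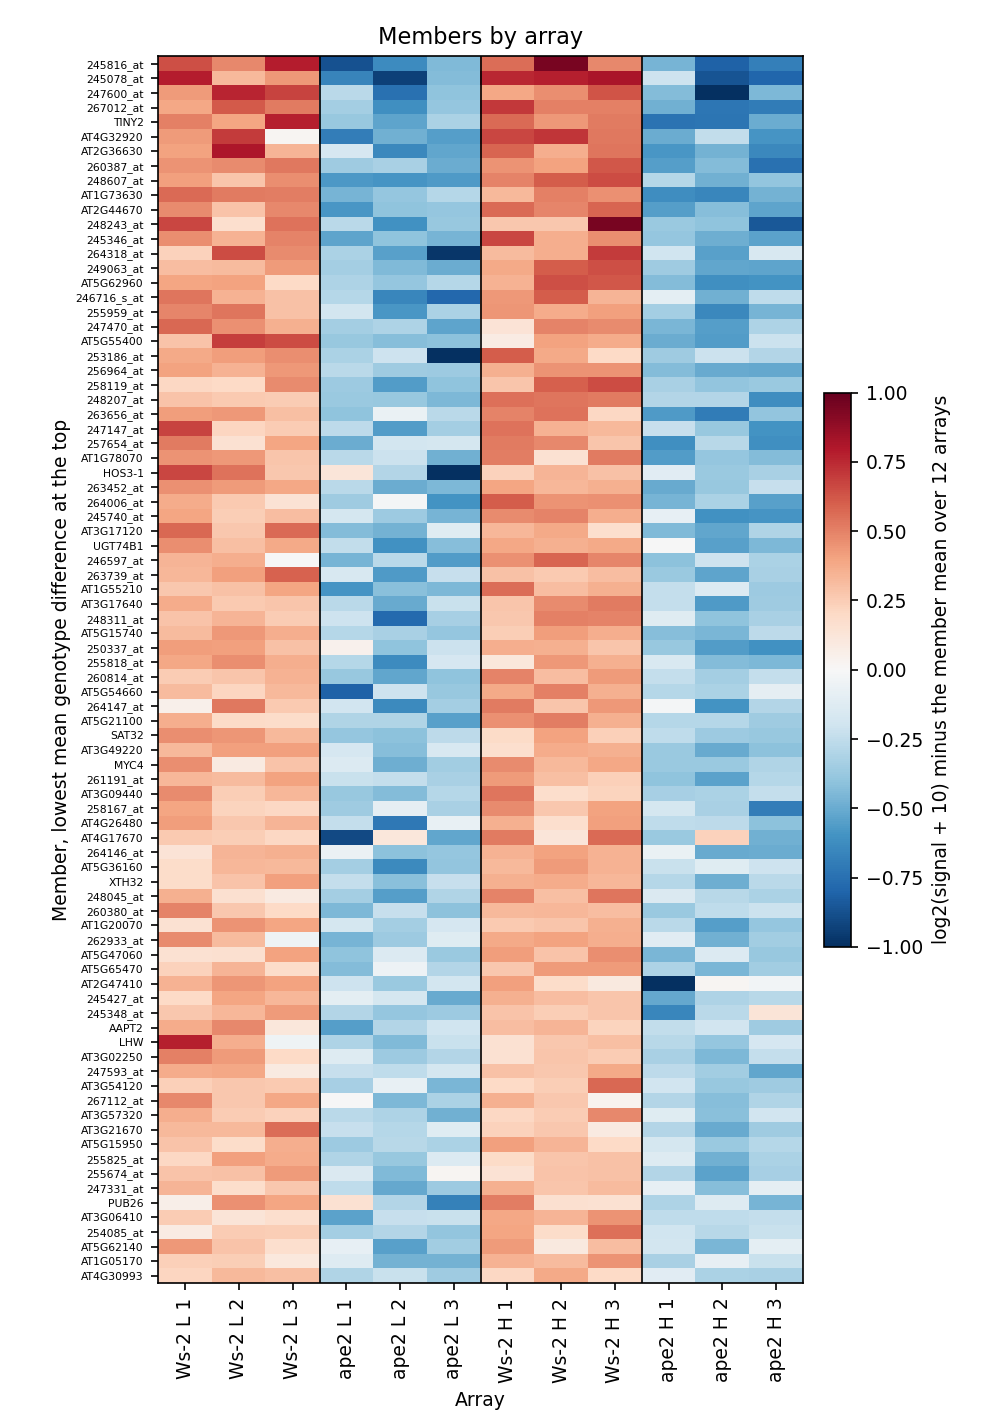
Each row is 1 of the 84 members and each column 1 array, ordered by group and replicate number. Colour gives log2(signal + 10) minus the member's mean over the 12 arrays, cut off at 1 and -1, with the lowest mean genotype difference at the top. The 6 Ws-2 columns are mostly red and the 6 ape2 columns mostly blue in both conditions, with single cells of the other colour such as ape2 L 2 and ape2 H 2 of AT4G17670.

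Of the members with a gene symbol, 3 encode transcription factors. TINY2 (AT5G11590), an AP2/ERF protein of the DREB subfamily, had signals of 154, 142 and 188 in Ws-2 L and of 79.2, 70.6 and 83.4 in ape2 L. In H it read 162, 147 and 156 in Ws-2 and 59.7, 59.9 and 72.4 in ape2. The 6 ape2 arrays were all lower than the 6 Ws-2 arrays, with differences of -0.96 in L and -1.16 in H, the lowest mean difference of any member with a named gene.

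MYC4 (AT4G17880) is a bHLH factor of the jasmonate response that acts with its relatives MYC2 and MYC3 and is known to activate genes of glucosinolate synthesis. Its signals were 249, 191 and 219 in Ws-2 L against 161, 124 and 138 in ape2 L, and 251, 226 and 236 in Ws-2 H against 136, 135 and 143 in ape2 H. The genotypes did not overlap in either condition, and MYC4 stood at -0.60 in L and -0.74 in H.

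LHW (AT2G27230), a bHLH factor named after LONESOME HIGHWAY and known for vascular cell number in the root, is dim here. It read 96.4, 69.7 and 50.3 in Ws-2 L and 40.0, 35.6 and 43.1 in ape2 L, then 59.0, 65.0 and 66.4 in Ws-2 H and 41.1, 37.4 and 45.1 in ape2 H. The Ws-2 L arrays were widely spread, the lowest of them close above the highest ape2 L array. Its differences were -0.69 in L and -0.52 in H.

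The enzymes with a gene symbol fell into cell wall, glucosinolate and lipid metabolism. XTH32 (AT2G36870), a xyloglucan endotransglucosylase/hydrolase that cuts and rejoins xyloglucan chains in the wall, was the brightest of the 9 members with a symbol. Its signals were 1019, 1096 and 1198 in Ws-2 L and 759, 670.3 and 764 in ape2 L. In H they were 1149.7, 1163 and 1134 in Ws-2 and 737, 639 and 743 in ape2. The 6 ape2 arrays lay well under the 6 Ws-2 arrays, and ape2 kept 66.2% of the Ws-2 signal in L and 61.5% in H, or -0.59 and -0.70 on the log2 scale.

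UGT74B1 (AT1G24100) encodes the glucosyltransferase that puts the glucose on the thiohydroximate during synthesis of the glucosinolate core. In L its signals were 438, 390.0 and 413 in Ws-2 and 264, 204 and 231 in ape2. In H they were 414, 406 and 413 in Ws-2 and 314, 213 and 228 in ape2. The genotypes were apart in both conditions, although ape2 H replicate 1 stood above its 2 fellows. The differences were -0.81 in L and -0.71 in H.

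AAPT2 (AT3G25585) is an aminoalcoholphosphotransferase, which makes phosphatidylcholine and phosphatidylethanolamine in the last step of their synthesis. It read 303, 328 and 251 in Ws-2 L, 155, 187 and 200.5 in ape2 L, 288, 296 and 272 in Ws-2 H and 194, 202 and 179 in ape2 H. No ape2 array reached a Ws-2 array, and the differences were -0.67 in L and -0.55 in H.

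HOS3-1 (AT4G36830) encodes a protein related to the fatty acid elongases of yeast. Its signals were 110.5, 101 and 81.3 in Ws-2 L and 72.5, 51.8 and 19.4 in ape2 L, followed by 79.0, 85.9 and 83.1 in Ws-2 H and 60.1, 48.7 and 50.5 in ape2 H. The lowest array, ape2 L replicate 3, set much of the difference of -1.01 in L, which was -0.58 without it. In H the difference was -0.56.

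The other 2 members with a symbol concern protein turnover and stress. PUB26 (AT1G49780), a U-box ubiquitin ligase known to mark the immune kinase BIK1 for degradation, had the lowest mean signal of all members, 52.0. It read 52.5, 72.5 and 69.0 in Ws-2 L against 56.7, 39.0 and 27.7 in ape2 L, where ape2 replicate 1 lay above Ws-2 replicate 1, so that this was the member whose genotypes overlapped in L. In H its signals were 75.7, 57.2 and 56.9 in Ws-2 and 38.5, 45.1 and 33.6 in ape2, without overlap. The difference was -0.58 in each condition, and -0.37 in L without ape2 L replicate 3.

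SAT32 (AT1G27760), named SALT-TOLERANCE 32 in RefSeq, had signals of 189, 185 and 169.7 in Ws-2 L and of 100.2, 98.2 and 110.1 in ape2 L. In H they were 154, 179.9 and 159 in Ws-2 and 110.3, 102 and 100.3 in ape2. The ape2 arrays of both conditions formed a narrow band below all Ws-2 arrays, with differences of -0.76 in L and -0.61 in H.

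**Figure D3:**
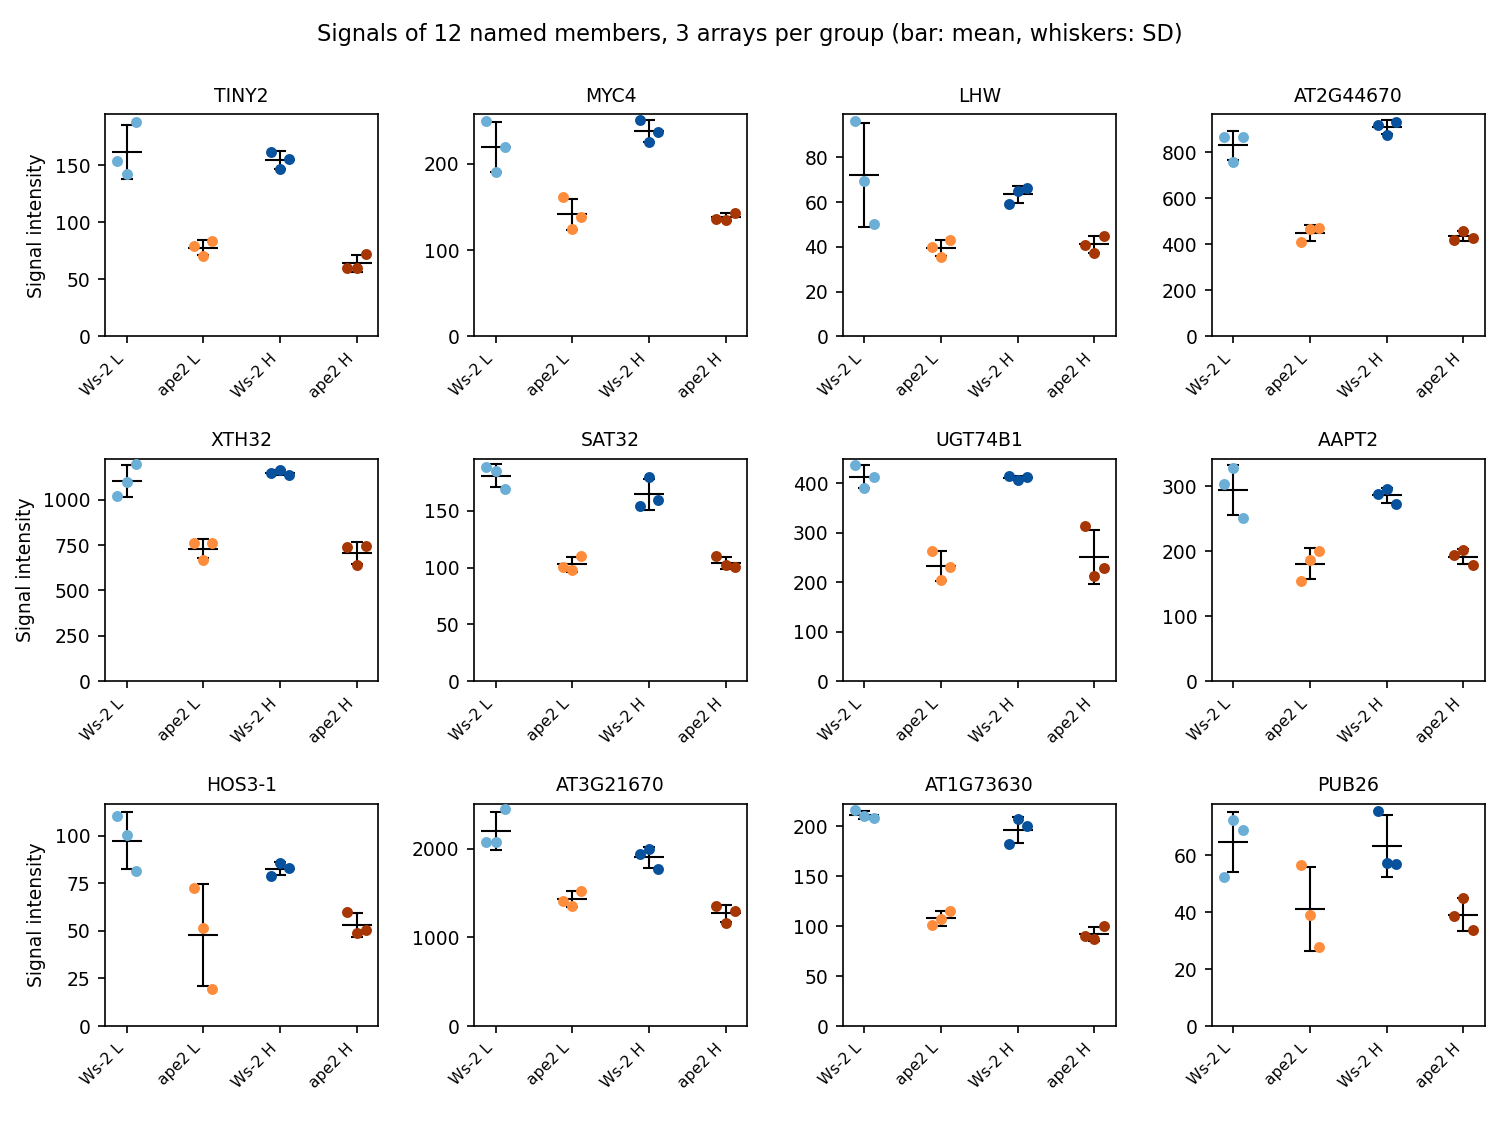
Signal intensity on a linear scale from 0 (vertical axis) of 12 named members in the 4 groups (horizontal axis): the 9 with a gene symbol, and AT2G44670, AT3G21670 and AT1G73630. Points are single arrays, horizontal bars group means and whiskers the SD over 3 arrays. The ape2 points lie below the Ws-2 points of their condition in every panel except that of PUB26, where ape2 L and Ws-2 L overlap.

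The brightest named member was AT3G21670, listed in RefSeq as NPF6.4 of the NRT1/PTR family of membrane transporters. Its signals were 2076, 2077 and 2447 in Ws-2 L and 1414, 1358 and 1528 in ape2 L. In H they were 1946, 1999 and 1770.0 in Ws-2 and 1355, 1167 and 1297 in ape2. Every ape2 array lay below every Ws-2 array, with differences of -0.61 in L and -0.58 in H. The signal was also slightly lower in H than in L in both genotypes, by -0.20 in Ws-2 and -0.17 in ape2.

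The other 30 members known by locus code have no function in the annotation used here and are given by their values. The lowest mean differences among them were those of AT4G32920, AT2G36630, AT1G73630 and AT2G44670. AT4G32920 read 89.5, 110.1 and 65.3 in Ws-2 L, 35.9, 43.2 and 40.7 in ape2 L, 108, 112 and 96.7 in Ws-2 H and 42.5, 52.5 and 39.1 in ape2 H. The ape2 signal of AT4G32920 was thus 45.2% of that of Ws-2 in L and 42.5% in H. AT2G36630 had signals of 320.3, 429 and 307 in Ws-2 L, 212, 151 and 164 in ape2 L, 365, 312 and 352 in Ws-2 H and 158, 171 and 151 in ape2 H. It stood at -0.96 in L and -1.05 in H, with no overlap of the genotypes.

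AT1G73630 read 216, 209.8 and 208 in Ws-2 L, 101, 107 and 115 in ape2 L, 182, 207 and 200.1 in Ws-2 H and 89.7, 87.2 and 100.2 in ape2 H, which put it at -0.91 in L and -1.01 in H. Its arrays lay close together within each group. AT2G44670 read 864, 757 and 867 in Ws-2 L, 409.8, 466 and 469.7 in ape2 L, 919.8, 873 and 932 in Ws-2 H and 418, 459 and 427 in ape2 H. The ape2 arrays of AT2G44670 stayed close to each other across conditions, at -0.87 in L and -1.05 in H relative to Ws-2.

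AT5G62960 was the member whose difference grew most from L to H. Its signals were 246, 248 and 214 in Ws-2 L, 148, 139 and 150.3 in ape2 L, 238, 296 and 289.7 in Ws-2 H and 134, 118 and 119 in ape2 H. The Ws-2 mean was higher in H than in L and the ape2 mean lower, so the difference went from -0.66 to -1.08. AT5G55400 changed the other way. It read 163, 219 and 213 in Ws-2 L, 99.4, 95.9 and 96.6 in ape2 L, 141, 177 and 173 in Ws-2 H and 90.7, 86.2 and 112 in ape2 H. Its ape2 mean was nearly the same in both conditions, and the difference was -0.95 in L and -0.71 in H.

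AT1G78070 had signals of 184, 182 and 162 in Ws-2 L, 108, 112 and 91.7 in ape2 L, 192, 148 and 193 in Ws-2 H and 86.1, 98.4 and 95.0 in ape2 H. AT3G17120 read 106, 84.4 and 106 in Ws-2 L, 48.1, 46.6 and 62.0 in ape2 L, 88.6, 91.7 and 78.1 in Ws-2 H and 47.8, 44.8 and 53.7 in ape2 H. Both genes were lower in all 6 ape2 arrays than in any Ws-2 array. AT1G78070 stood at -0.71 in L and -0.86 in H, and AT3G17120 at -0.81 and -0.71.

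AT1G55210 read 249.5, 254 and 272 in Ws-2 L, 133, 152 and 148 in ape2 L, 307, 257 and 266 in Ws-2 H and 173, 186 and 158 in ape2 H. AT3G17640 read 185, 171 and 173 in Ws-2 L, 115, 96.5 and 119 in ape2 L, 173, 199.5 and 206 in Ws-2 H and 118, 91.9 and 108 in ape2 H. The genotypes were again apart for both genes, AT1G55210 at -0.80 in L and -0.65 in H and AT3G17640 at -0.63 and -0.81.

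AT4G17670 was the member whose genotypes overlapped in H. Its signals were 97.2, 96.1 and 92.8 in Ws-2 L and 37.7, 86.7 and 52.3 in ape2 L, then 118, 87.2 and 122 in Ws-2 H and 58.9, 94.5 and 53.9 in ape2 H. Replicate 2 of ape2 was the high array in both conditions, and in H it lay above replicate 2 of Ws-2. The difference of AT4G17670 was -0.67 in L, or -0.44 without ape2 L replicate 1, and -0.61 in H. AT2G47410 had 83.8 ± 3.06 in Ws-2 L, 49.8 ± 4.01 in ape2 L and 73.9 ± 9.45 in Ws-2 H, and a single low array stood out, ape2 H replicate 1 at 23.0 next to 62.0 and 59.8 in its fellows. The difference of AT2G47410 was -0.65 in L and -0.61 in H, where it was -0.24 without that array. Leaving out 1 array moved the difference by more than 1.5 times in 5 members, which are these genes, HOS3-1, PUB26 and the unnamed 245348_at (-0.53 in H, and -0.34 without ape2 H replicate 1).

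Bright members known by locus code moved by moderate amounts. AT3G09440 fell from 1688 ± 134 to 1024 ± 54.3 in L and from 1649.5 ± 234 to 1074 ± 38.8 in H (SD, n = 3). AT5G15950 went from 1109 ± 70.4 to 731 ± 22.4 in L and from 1141 ± 84.5 to 752 ± 51.1 in H. On the log2 scale the differences were -0.71 and -0.61 for AT3G09440 and -0.59 in each condition for AT5G15950. They exceeded the SDs on that scale, pooled over the groups, of 0.12 for AT3G09440 and 0.09 for AT5G15950. AT3G49220 had 656 ± 21.4 in Ws-2 L, 421 ± 43.5 in ape2 L, 619 ± 47.0 in Ws-2 H and 370.0 ± 17.3 in ape2 H. AT1G20070 had 548 ± 60.4, 368 ± 24.8, 534 ± 18.7 and 325 ± 32.6 in the same order, and AT5G36160 had 520.0 ± 30.6, 309 ± 33.9, 553 ± 22.1 and 374 ± 15.3. In each of these 5 genes both ape2 means lay below both Ws-2 means, and in AT5G36160 the ape2 signal was higher in H than in L, by 0.27 on the log2 scale.

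A further 7 members had intermediate signals. In the order Ws-2 L, ape2 L, Ws-2 H and ape2 H, AT5G21100 had 364 ± 27.0, 233 ± 22.8, 418 ± 23.5 and 244 ± 6.88. AT5G62140 had 367 ± 34.6, 237 ± 40.0, 364 ± 42.6 and 250.1 ± 32.4, and AT4G30993 had 293 ± 12.0, 193 ± 9.58, 289.6 ± 21.4 and 200.1 ± 18.1. AT4G30993 had the smallest mean difference of the named members, -0.57 in L and -0.51 in H. AT3G02250 had 236 ± 26.3, 148 ± 13.3, 212 ± 10.1 and 140.1 ± 10.7, and AT3G06410 had 225 ± 10.4, 156 ± 19.6, 261 ± 10.2 and 164 ± 1.27. AT5G65470 had 196 ± 11.5, 135 ± 19.8, 214 ± 13.4 and 123 ± 7.13, and AT1G05170 had 173 ± 9.65, 115 ± 18.1, 197 ± 9.96 and 128 ± 11.7. For AT3G06410 and AT5G65470 the difference was close to the limit in L, at -0.51 each, and larger in H, at -0.64 and -0.74.

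AT4G26480 had 156 ± 8.78 in Ws-2 L, 95.4 ± 23.0 in ape2 L, 153 ± 14 in Ws-2 H and 96 ± 6.10 in ape2 H. In the same order AT5G15740 had 131 ± 5.79, 77.0 ± 3.02, 129 ± 8.35 and 74.1 ± 6.14, a difference of -0.70 in L and -0.72 in H with little spread. A further 4 dim members were AT3G57320, AT5G47060, AT5G54660 and AT3G54120. AT3G57320 had 105 ± 5.66, 63.9 ± 5.63, 107 ± 12.2 and 69.8 ± 8.46. AT5G47060 had 86 ± 9.5, 55.9 ± 6.75, 96.4 ± 6.64 and 54.9 ± 7.67, and AT5G54660 had 77.0 ± 3.79, 42.3 ± 10.7, 84.8 ± 5.45 and 50.8 ± 5.32. AT3G54120 had 75.8 ± 0.945, 49.1 ± 8.07, 81.3 ± 13.6 and 48.0 ± 4.13, and its genotypes did not overlap.

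The 43 members with no gene named had differences from -1.29 to -0.50 in L, with a median of -0.69, and from -1.40 to -0.52 in H, with a median of -0.78. The 3 lowest were also the 3 members at -1 or lower in both conditions. The probe set 245816_at read 101, 89.2 and 113 in Ws-2 L, 28.9, 36.0 and 42.2 in ape2 L, 94.5, 127 and 89.3 in Ws-2 H and 41.4, 30.5 and 34.3 in ape2 H. The ape2 arrays thus held 35.3% of the Ws-2 signal in L and 34.2% in H. The probe set 245078_at read 473, 343 and 370.1 in Ws-2 L, 168, 137 and 198 in ape2 L, 463, 471 and 485 in Ws-2 H and 234, 144 and 152 in ape2 H, at -1.19 in L and -1.40 in H. The probe set 247600_at read 114, 146 and 137 in Ws-2 L, 66.3, 44.7 and 59.3 in ape2 L, 110.2, 117 and 132 in Ws-2 H and 58.0, 34.1 and 57.3 in ape2 H, at -1.10 and -1.14. None of the 3 had an ape2 array within the Ws-2 range.

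The brightest member of all was 261191_at, with 2252, 2225 and 2366 in Ws-2 L, 1529.6, 1514 and 1428 in ape2 L, 2411, 2211 and 2109 in Ws-2 H and 1354, 1229 and 1468 in ape2 H. Its differences, -0.61 in L and -0.73 in H, were near the medians of the members. The member that matches several genes, 246716_s_at, had means of 71.5 ± 7.16 in Ws-2 L, 32.2 ± 7.85 in ape2 L, 75.4 ± 8.05 in Ws-2 H and 41.5 ± 6.76 in ape2 H. Which of these genes gives the signal of 246716_s_at cannot be told, and no gene is named from it.

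From L to H the genotype difference changed by 0.3 or less in size for most members. The difference in H minus that in L had a median of -0.06 over the members and ran from -0.43 in AT5G62960 to 0.45 in HOS3-1, next to a median of 0.00 over all probe sets. It was within 0.1 of 0 for 32 members and over 0.3 in size for 5. The fall was larger in H for 51 members and larger in L for 33. The rule required a fall in both conditions, so these counts are a description, and no share over all probe sets was taken.

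Between conditions the rule held only the average of the genotypes, and the genotypes themselves could differ. In Ws-2, H minus L had a median of 0.03 with a range from -0.26 to 0.28, and 71 of the 84 members were within 0.2 of 0. Of all probe sets with a mean signal of 50 or more, 77.0% were within 0.2 in Ws-2. In ape2 the median was -0.02, the range -0.33 to 0.31, and 70 members were within 0.2, against 72.6% of all. The sign of H minus L was positive in both genotypes for 24 members, negative in both for 21 and opposite for 39. Since the rule set limits on these values, the counts are a description.

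**Figure D4:**
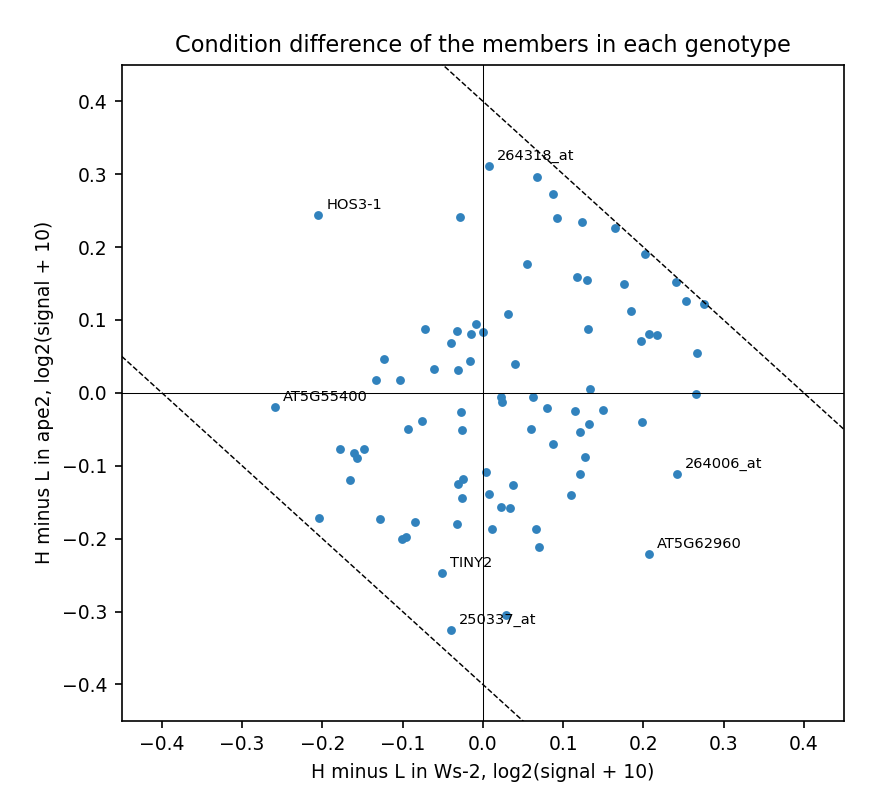
H minus L of log2(signal + 10) in Ws-2 (horizontal axis) and in ape2 (vertical axis), with 1 point for each of the 84 members. Dashed lines mark where the mean of both values is 0.2 or -0.2, the limits of the rule. HOS3-1 and AT5G62960 lie on opposite sides, at 0.24 and -0.22 in ape2.

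The limits cut through a continuous range of values. Just inside the genotype limit lay 247593_at at -0.501, AT3G06410 at -0.511 and AT5G65470 at -0.512, each for the smaller of its differences. Just outside it were OCT5 at -0.496, UGT76E11 at -0.495 and AT4G02940 at -0.494. For H minus L the members nearest the limit were 246597_at at 0.199, 248045_at at 0.197 and 248607_at at 0.196. Beyond the limit were AT4G34950 at -0.201, 264436_at at 0.204 and 254785_at at -0.204. At the limit on mean signal PUB26 (52.0), LHW (54.1) and 246716_s_at (55.1) were in, and 248306_at (48.0), AT3G61950 (42.5) and 252677_at (41.3) were out. In all, 166 probe sets were lower in ape2 in both conditions by the same limit. Leaving aside the members and the excluded names, 40 of them had H minus L above 0.2 and 39 below -0.2. With the limits mirrored, 105 probe sets were higher in ape2 and steady between conditions.

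The same measure was next read in arrays held back while the rule picked probe sets. The rule was applied to the arrays of 2 replicate numbers, and the genotype difference of the chosen probe sets was read in the 4 arrays of the remaining number, which leaves 1 array per group and no test. Without number 1 the rule chose 96 probe sets. In the arrays of number 1 their median difference was -0.60 in L and -0.60 in H, 95.8% were lower in ape2 in both conditions and 47.9% were at -0.5 or lower in both. Of all probe sets with a mean signal of 50 or more in the choosing arrays, 36.2% and 1.99% were so.

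Without number 2 there were 81 chosen, with held-out medians of -0.69 in L and -0.72 in H. Of these 93.8% were lower in both conditions, against 37.4% of all, and 61.7% were at -0.5 or lower in both, against 2.51%. Without number 3 there were 92, with medians of -0.59 and -0.68. All 92 of them were lower in both conditions, against 32.5% of all, and 54.3% were at the limit or beyond in both, against 1.81%. The chosen probe sets were thus mostly lower in ape2 in the held-out arrays as well. The rule itself was set with earlier results of all arrays known, the held-out ones among them. The held-out values are therefore a description and not an independent check. Their shares count probe sets read in the same 1 array per group, not separate samples. The held-out median was slightly closer to 0 than that in the choosing arrays in numbers 1 and 3. Members were 65 of the 96 chosen without number 1, 59 of 81 without number 2 and 70 of 92 without number 3. The rest of the chosen probe sets were not members. Between conditions the chosen probe sets were about as steady in held-out arrays as all probe sets. H minus L, averaged over the genotypes, was within 0.2 for 68.8%, 75.3% and 69.6% of them in numbers 1, 2 and 3, against 71.4%, 72.6% and 72.1% of all.

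**Figure D5:**
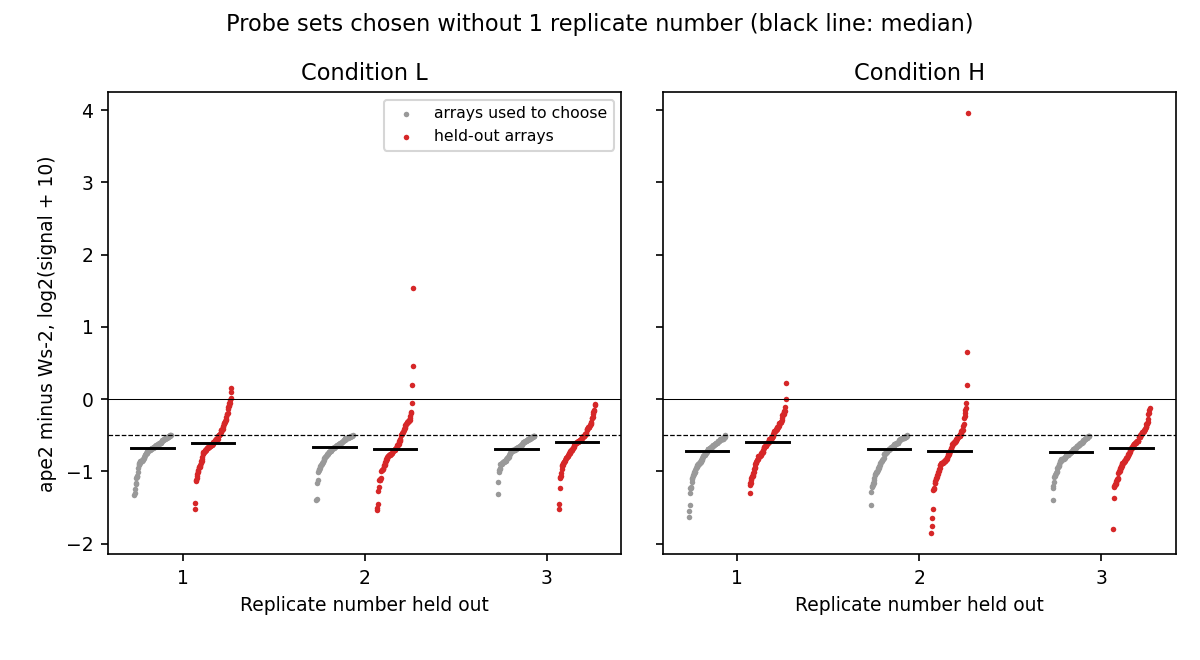
Difference between the genotypes (ape2 minus Ws-2 of log2(signal + 10), vertical axis) in L and in H for probe sets chosen without 1 replicate number (horizontal axis). Grey points are values in the arrays used to choose, red points values in the held-out arrays, black lines medians, and the dashed line the limit of -0.5. Most red points lie below 0, and 259925_at, which is not a member, stands apart at 1.53 in L and 3.95 in H in number 2.

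Other genes of the lists that hold a member were read from a linear model fitted with limma to 16121 probe sets. That model called 9.78% of them between the genotypes in L (4.78% lower and 4.99% higher in ape2) and 10.5% in H (5.53% lower and 4.97% higher), at an adjusted p under 0.05. The counts of list genes below leave out the members, whose values were fixed by their choice. All lists were drawn up with earlier results of these data known, so their counts are a description. Of the glucosinolate list 1 other gene could be tested. BCAT4, an aminotransferase that starts the chain elongation of methionine, was at 0.27 in L (limma adjusted p = 0.355) and 0.49 in H (0.0730) and was not called.

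Of the other 25 tested genes of the UGT family, which transfer sugars to small molecules, 5 were lower and 2 higher in ape2 in L, with a median of -0.14. In H 4 were lower and 1 higher, with a median of -0.07. The flavonol glycosyltransferases UGT78D1 and UGT78D2, which the rule leaves out by name, were also lower. UGT78D1 fell from 164 ± 26.7 to 94.2 ± 18.4 in L (log2 change -0.74 ± 0.15 SE). In H it fell from 173 ± 16.4 to 92.7 ± 14.8 (-0.84 ± 0.15). It met the limits of the rule before its removal, so its values and its place among the lower genes are a description. UGT78D2 fell from 304 ± 16.6 to 234 ± 26.5 in L (-0.37 ± 0.09, limma adjusted p = 0.0162) and from 368 ± 20.9 to 222 ± 19.1 in H (-0.70 ± 0.09, limma adjusted p = 9.14e-05). Its call in L was lost without Ws-2 L replicate 1 or 3 or ape2 L replicate 2.

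UGT84A3 was called in H, where it fell from 262 ± 45.2 to 156 ± 4.72 (-0.70 ± 0.11, limma adjusted p = 5.10e-04), and it stood at -0.32 ± 0.11 in L (0.0795), where it was called without Ws-2 H replicate 2. The difference of its changes between conditions was -0.38 ± 0.15 and was not called (limma adjusted p = 0.599). UGT88A1 was higher in ape2, from 342 ± 10.9 to 628 ± 41.9 in H (0.86 ± 0.08, limma adjusted p = 3.71e-06). In L it had 557 ± 44.0 in Ws-2 and 684 ± 56.0 in ape2 (0.29 ± 0.08, limma adjusted p = 0.0308), a call that was lost without replicate 1 or 3 of either group, with a constant prior or with only the 6 arrays of L.

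The other 3 tested genes of the XTH family, XTH16, XTH20 and XTH33, were not called in either condition. The wider cell wall list does not hold XTH32. Of its 12 tested genes 3 were lower and 1 higher in ape2 in L, and as many in H. EXPA8 was the higher gene in L, at 0.68. It stood at 0.23 in H and was not called there, where another gene was higher. CSLA01 (-2.26 in L and -2.23 in H) and TBL26 (-1.34 and -0.96) were among the lower genes in both conditions. Of all probe sets tested, 4.78% were lower and 4.99% higher in L, and 5.53% and 4.97% in H. On the jasmonate list, which does not hold MYC4, 2 of 22 genes could be tested. JMT, which methylates jasmonic acid, was lower and the defensin gene PDF1.2 was higher in both conditions. The cell wall and jasmonate lists, too, were drawn up with earlier results known and give no independent support. The medians over all tested probe sets were 0.01 in L and -0.01 in H.

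Other properties of the members were compared with the rest of the array without a test. Their mean signals ran from 52.0 to 1841 with a median of 195, against a median of 128 over all probe sets with a mean signal of 50 or more. Genes of the 40 members with 1 gene had a median length of 2514 bases in RefSeq, against 2342. Chromosomes 1 to 5 held 8, 5, 10, 6 and 11 of these 40 genes, or 20%, 12.5%, 25.0%, 15.0% and 27.5%, where they hold 25.7%, 14.9%, 20.5%, 14.8% and 24.2% of all such genes. No pair of member genes lay 10 or fewer genes apart (0 pairs), and the closest, AT4G17670 and MYC4, were 24 genes apart. Within groups the median correlation of residuals between members was 0.04, against 0.00 over all. The mean residual of the members was 0.048 in ape2 L replicate 1 and 0.046 in ape2 H replicate 1. In replicate 2 it was -0.034 in ape2 L and -0.041 in ape2 H, and in replicate 3 -0.014 and -0.005. Across the Ws-2 arrays this mean lay between -0.018 and 0.019. A shift shared by same-numbered ape2 arrays was not tested. No other probe set of a member gene is named (0 found), so none of these differences could be read a further time on the array.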

How the data were processed

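The deposited values are signal intensities on a linear scale, 1 per probe set and array, which the authors computed using MAS5, per the submitters' processing notes. All arrays had already been scaled to a 2% trimmed mean of 100, which hides any shift common to most transcripts, and MAS5's mismatch correction makes dim signals noisy. The rule was applied to the deposited values, with 64 control probe sets left out. For the background and the list genes, arrays were rescaled to a trimmed mean of 100 without controls, probe sets were kept where 3 arrays or more reached a signal of 20, and log2(signal + 10) was fitted with limma 3.58.1 in R 4.3.3 as 4 group means, with an intensity trend and a robust prior. Tests were two-sided, with Benjamini-Hochberg adjustment over all probe sets tested. The fit and the rule were checked on simulated data. Precision is limited by the number of arrays, and p-values reflect only the spread between samples, which may be technical. The labels do not say whether replicate numbers pair the arrays, and the main fit did not use the numbers.

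The annotation names 1 gene for 13513 probe sets, several for 503 and none for 8730, and 13436 of the first were matched to RefSeq (TAIR10.1). Members and lists were chosen with earlier results of these data known. Named with values were members with 1 gene; with every array, the 12 lowest mean differences among them, those with a symbol and the 2 brightest; the 3 lowest unnamed members; neighbours of each limit; and up to 4 called genes of a list that holds a member. AT3G17640 was also shown by array, outside this selection. AT4G17670 and AT2G47410 were shown by array after their values were seen. Alternatives were other offsets, scalings, filters, priors and averages, a replicate block, and leaving out each array. Sequences were not used here.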

Additional observations from a re-analysis of the deposited data

How the results depend on the processing

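With another offset, scaling or average the rule chose between 70 and 97 probe sets, and without each array in turn 75 to 90, of which 70 to 80 were among the 84. In every alternative other than those on mean signal 43 of the 84 met the rule, 18 of them named, among them TINY2, MYC4, XTH32, UGT74B1, AAPT2 and SAT32. The median member difference was -0.60 in L and -0.65 in H with an offset of 32, and -0.72 to -0.66 in L and -0.75 to -0.69 in H without each array. The number of probe sets called was 1576 in L and 1693 in H. Without each array it ran from 1030 (without Ws-2 L replicate 2) to 1602 in L and from 1098 (without Ws-2 H replicate 3) to 1847 in H, with 1048 in L without Ws-2 L replicate 3. Of 31 tested genes on lists that hold a member, 10 were called in L or H, and 7 to 11 without each array. Over all probe sets tested 9.78% were called in L and 10.5% in H. These are shares of single conditions, and the share called in either was not taken. The 10 list genes can therefore not be set against them. The 10 include the members UGT74B1 and XTH32, whose values were fixed by their choice, and UGT78D1, which met the same limits. Same-numbered arrays of different groups had correlations of residuals from -0.19 to 0.26, over 0.1 in 2 of 18 pairs. Both of those pairs were ape2 L with ape2 H, at 0.102 in replicate 1 and 0.262 in replicate 2, with 0.063 in replicate 3. For Ws-2 L with Ws-2 H the values were 0.098, 0.022 and 0.030. A link between same-numbered arrays of a genotype was not tested. With the replicate number as a block 1476 were called in L and 1589 in H, and 10 list genes. No named difference changed sign. UGT88A1 lost its call in L in 6 alternatives. The cause of these changes was not tested. The number of arrays and the noise of dim signals limit the smaller differences.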

Other observations

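The probe set 259925_at, which is not a member and has no gene named here, was singled out after its values were seen. Its signals were 1597 in ape2 L replicate 2 and 1816 in ape2 H replicate 2, against 381 to 730.3 in the other 4 ape2 arrays. In Ws-2 H replicate 2 it read 107.9, against 545 to 1029.5 in the other 5 Ws-2 arrays. Without the arrays of number 2 it met the limits for the members, at -0.63 in L and -0.52 in H, and in those arrays it stood at 1.53 and 3.95.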
